A study of Homo sapiens with 39 samples.

Results

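The genes described here are 10 regulators of apoptosis of the BCL2 family, taken by name from a table of 57773 gene identifiers. No threshold was set on their values, but they were chosen with earlier results of these data known. They are the pro-survival genes MCL1, BCL2 and BCL2L1, the BH3-only genes BBC3, PMAIP1, HRK, BMF and BCL2L11, and the effectors BAX and BAK1. RNA was sequenced in 39 libraries of JJN3, an established human multiple myeloma cell line, that is, a malignant plasma cell line. The 13 groups, of 3 libraries each, were cells at time 0 (T0) and cultures of 1, 3, 6 or 24 h with the vehicle DMSO, with GSK-J4, an inhibitor of the KDM6 histone demethylases, or with ZnSO4, which supplies zinc ions. All groups were the same line in RPMI with 10% FCS. The labels used here state no doses, so the compounds could not be compared at matched doses. No label says that the 3 libraries of a group were separate cultures. Each p-value therefore rests on the spread among libraries alone, and that spread may be technical.

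Proteins of this family decide at the mitochondrial outer membrane whether a cell enters apoptosis. BAX and BAK1 form the pores that release cytochrome c, the pro-survival proteins hold them back, and the BH3-only proteins bind the pro-survival proteins or activate the effectors. Many BH3-only genes are switched on by stress signals, and plasma cells and myeloma cells often depend on MCL1. Only messenger RNA was measured, and many of these proteins are also controlled by their stability.

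The promoters of HRK, BMF, PMAIP1 and BBC3 are shown because these BH3-only genes gave the largest changes with the compounds. RefSeq promoter entries (GRCh38.p14) matched 9 of the 10 genes, with BCL2L1 and BMF having 2 starts each. MCL1 had no entry, so its promoter was not searched. The 250 bases before each start were searched on both strands for the C/EBP-ATF element TGATGNAA, the cyclic AMP element TGACGTCA, the heat shock element GAANNTTC, the metal response element TGCACNC or TGCGCNC, and the E-box CACGTG. The shown windows lie at chr12:116881442-116881691, minus strand (HRK), chr15:40108880-40109129, minus strand (BMF, first start), chr18:59899746-59899995, plus strand (PMAIP1) and chr19:47232668-47232917, minus strand (BBC3). Each is written 5′ to 3′ towards the gene, with the matches in capitals.
HRK: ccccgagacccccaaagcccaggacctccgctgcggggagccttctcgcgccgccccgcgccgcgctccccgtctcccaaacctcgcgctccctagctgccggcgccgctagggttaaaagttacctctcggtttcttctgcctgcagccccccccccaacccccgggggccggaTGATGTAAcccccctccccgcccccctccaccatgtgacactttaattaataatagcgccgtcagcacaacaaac
BMF: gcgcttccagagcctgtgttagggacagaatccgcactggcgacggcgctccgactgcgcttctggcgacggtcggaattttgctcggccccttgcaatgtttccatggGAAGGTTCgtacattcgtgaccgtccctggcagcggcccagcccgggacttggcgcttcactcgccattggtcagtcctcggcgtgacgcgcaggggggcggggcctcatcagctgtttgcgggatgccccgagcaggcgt
PMAIP1: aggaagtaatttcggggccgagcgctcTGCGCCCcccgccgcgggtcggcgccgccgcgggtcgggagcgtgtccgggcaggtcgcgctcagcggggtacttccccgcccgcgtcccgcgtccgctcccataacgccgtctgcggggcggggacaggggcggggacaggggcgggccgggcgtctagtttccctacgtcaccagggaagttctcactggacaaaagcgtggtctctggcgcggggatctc
BBC3: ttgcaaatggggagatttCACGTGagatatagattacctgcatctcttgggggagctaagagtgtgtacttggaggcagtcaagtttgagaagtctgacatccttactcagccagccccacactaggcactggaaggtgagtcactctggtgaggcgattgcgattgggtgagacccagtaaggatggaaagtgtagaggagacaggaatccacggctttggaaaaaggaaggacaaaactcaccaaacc
The capitals mark TGATGTAA in HRK, 75 bases before the start, GAAGGTTC in BMF at 141 bases, the metal response match TGCGCCC in PMAIP1 at 223 bases, and CACGTG in BBC3 at 232 bases. Of 35116 promoter windows of the same length, 3.14% held the C/EBP-ATF element, 1.65% the cyclic AMP element, 5.78% the heat shock element, 24.83% the metal response element and 6.34% the E-box. Among the windows not shown, BAX held 4 E-boxes, BAK1 a heat shock element, and BCL2, BCL2L1 and BCL2L11 metal response matches. The second start of BMF held none of these letters, and no cyclic AMP element was found in any of the 9 genes. A match describes letters in a window, not a bound site.

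Library totals ran from 4347745 to 10695671 counts (median 6010529), and none of the 10 genes was lost to the low-count filter. Levels are CPM, that is, counts scaled to a common library size, and 3 counts equal 0.28 to 0.69 CPM depending on the library. HRK was read from 4 to 43 counts per library and is by far the least precise of the 10. T0 replicate 3 stood apart from the other T0 libraries, with a chi-squared per gene of 5.208 and 7.325 against them, while other replicate pairs reached at most 3.301. The mitochondrial share was 4.38 to 5.54% at 24 h, above the 2.92 to 3.90% of all earlier libraries. The 9 plasma cell markers (SDC1, IRF4, PRDM1, XBP1 and others) were all present, with a summed level of 1810 to 2666 CPM, whereas each T cell or monocyte marker stayed at 1.29 CPM or less. The library kit does not mark strand, so reads cannot be told apart for genes that overlap on opposite strands. In bulk RNA, fewer cells of a kind and less RNA per cell cannot be told apart.

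In the vehicle cultures no member was called against T0 before 24 h. At 24 h of DMSO against T0, BBC3, PMAIP1, BCL2L11, BMF, MCL1 and BAK1 were higher and BCL2 was lower. Vehicle and time in culture cannot be told apart here, since no group was cultured for 24 h without DMSO, GSK-J4 or ZnSO4. A gene is called changed here where its adjusted p from edgeR's quasi-likelihood test, corrected over the 14460 genes tested, was under 0.05. Thus 6 of the 10 were called higher and 1 lower, where 30.5% of all genes tested were called higher and 32.7% lower, so a call is common in this comparison. With libraries scaled by their totals alone, the median of all genes fell by 0.24 on the log2 scale and 2769 genes were called higher and 6519 lower, in place of 4406 and 4734. On that scaling the 7 calls kept their directions, MCL1 gave 0.39 and BMF 0.43 in place of 0.61 and 0.65, and BAX was called lower (-0.32). Without T0 replicate 3 again 6 were higher and 1 lower, with BBC3 at 3.71, BCL2L11 at 2.05, PMAIP1 at 1.43, BAK1 at 0.70, BMF at 0.62, MCL1 at 0.56 and BCL2 at -0.88. At the earlier times edgeR called none of the 10 in DMSO at 1, 3 or 6 h against T0. DESeq2 also called 0 at these times, but gave no adjusted p at any of them for BCL2L1, BBC3, HRK and BAK1. At 6 h it also gave none for BMF, BCL2L11 and BAX. At an unadjusted p under 0.05 there were 1, 2 and 1 genes at these 3 times, and 0.0346%, 0.0968% and 0.0138% of all genes were called. The count at 3 h became 1, with PMAIP1 at 0.34, without T0 replicate 1. At 6 h it became 1, again PMAIP1, without T0 replicate 1 (0.33) or without DMSO 6 h replicate 3 (0.32).

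**Figure D1:**
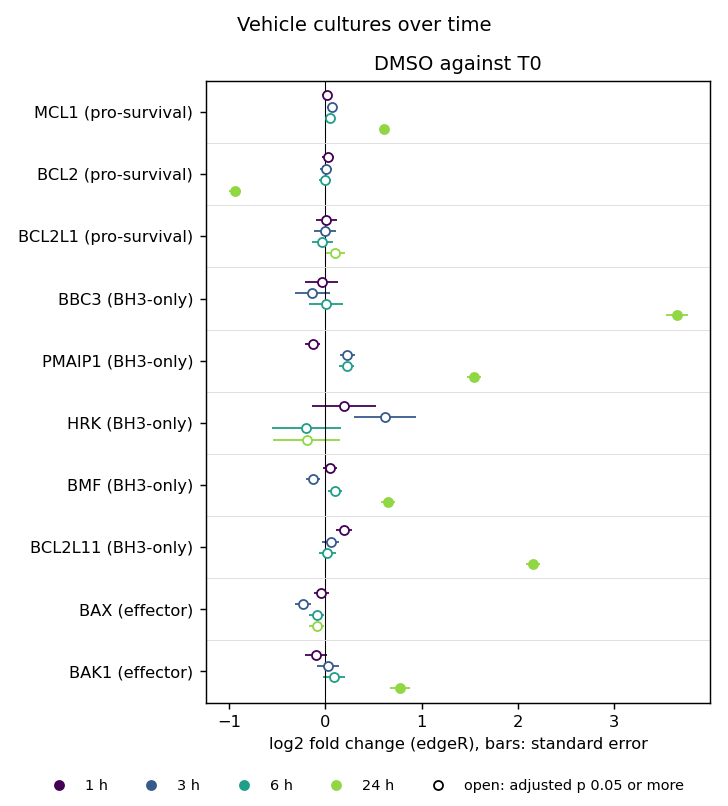
Log2 fold change of the 10 genes in DMSO cultures against T0 at 1, 3, 6 and 24 h, with the standard error as bars and filled points for adjusted p under 0.05. The filled points are all at 24 h, where BBC3 lies at 3.65 and BCL2 at -0.94.

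Markers of other cell types moved with the 24 h time point as well. The 3 epithelial markers EPCAM, KRT8 and KRT18 summed to 60.9 to 80.1 CPM in the 24 h libraries and 38.6 to 52.0 CPM before, mostly from EPCAM, and 2 of the 3 were called higher in DMSO at 24 h against T0. Of the 4 fibroblast or endothelial markers, the 2 tested were called higher in the same comparison, and the list summed to 7.98 to 42.1 CPM in DMSO at 24 h and 6.71 to 21.5 CPM at T0, with up to 59.3 CPM in a DMSO library of 3 h. Of the 9 plasma cell markers 2 were called higher and 6 lower. In this comparison 30.5% of all genes tested were called higher and 32.7% lower, so a call of a marker is common here. The part of these markers and of the mitochondrial share in the change of the 10 genes was not tested.

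With GSK-J4, PMAIP1 and, less firmly, BBC3 were higher at 3 h, joined by HRK and BCL2 at 6 h, while BMF was lower at 3 h. At 3 h, 2 of the 10 genes were higher and 1 lower, against 1.45% and 0.927% of all genes tested. At 6 h, 5 were higher and 0 lower, against 9.83% and 10.5%. These 5 were BCL2, BBC3, PMAIP1, HRK and BCL2L11, and 4 of them are BH3-only genes. At 24 h, BCL2 and HRK were higher and PMAIP1, BMF and BAK1 lower, so 2 and 3 of the 10, against 15.2% and 16.8%. With library totals alone, the split over all genes was 1791 higher and 1117 lower at 6 h (1422 and 1525 in the fit used here) and 3256 and 1526 at 24 h (2205 and 2424), where the median of all genes moved up by 0.11. On that scaling no called member changed sign. At 1 h edgeR called none of the 10 (1 at an unadjusted p under 0.05, 0 with DESeq2), and 0.0346% and 0.0692% of all genes were called higher and lower. DESeq2 gave no adjusted p at 1 h for BCL2L1, BBC3, HRK, BAX and BAK1. The median log2 difference of the 10 genes was 0.04, 0.09 and 0.17 at 1, 3 and 6 h and near 0 at 24 h, and that of all genes tested lay between 0.00 and 0.02. The plasma cell markers gave 2 higher and 4 lower of 9 with GSK-J4 at 6 h and 3 and 3 at 24 h. Neither of the 2 tested fibroblast or endothelial markers was called with GSK-J4 at 24 h by edgeR (2 at an unadjusted p under 0.05, 0 with DESeq2), where the list summed to 30.7 to 67.1 CPM against 7.98 to 42.1 CPM in DMSO, and the part of these markers was not tested.

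With ZnSO4, PMAIP1 was higher from 1 h, BBC3 and BMF changed most at 3 h, and at 6 h only BMF was still called. At 1 h PMAIP1 alone was called, 1 of 10 higher and 0 lower, against 0.498% and 0.18% of all genes. At 3 h MCL1, BBC3, PMAIP1, BMF and BCL2L11 were higher, so 5 and 0, against 6.59% and 4.16%. At 6 h BMF was the only gene called, 1 and 0, against 4.81% and 4.51%, and without DMSO 6 h replicate 1 BAK1 was called too (0.39). At 24 h MCL1, BMF and PMAIP1 were higher and BBC3 lower, so 3 and 1, against 3.98% and 5.58%. Of these 4, only MCL1 and BMF were also called by DESeq2 or without a filter on low counts. At 3 h the split over all genes was 758 higher and 947 lower with library totals alone, in place of 953 and 602. The median log2 difference of the 10 genes was 0.08, 0.18 and 0.05 at 1, 3 and 6 h and near 0 at 24 h. Plasma cell markers moved with ZnSO4: their sum was 1810 to 1943 CPM at 3 h against 2298 to 2325 CPM in DMSO, and 0 of the 9 were higher and 2 lower at 1 h, 0 and 2 at 3 h, 0 and 6 at 6 h, and 0 and 6 at 24 h. Both tested fibroblast or endothelial markers were lower at 3 h, with a list sum of 7.90 to 22.3 CPM against 15.5 to 59.3 CPM in DMSO. The part of these markers in the results was not tested.

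**Figure D2:**
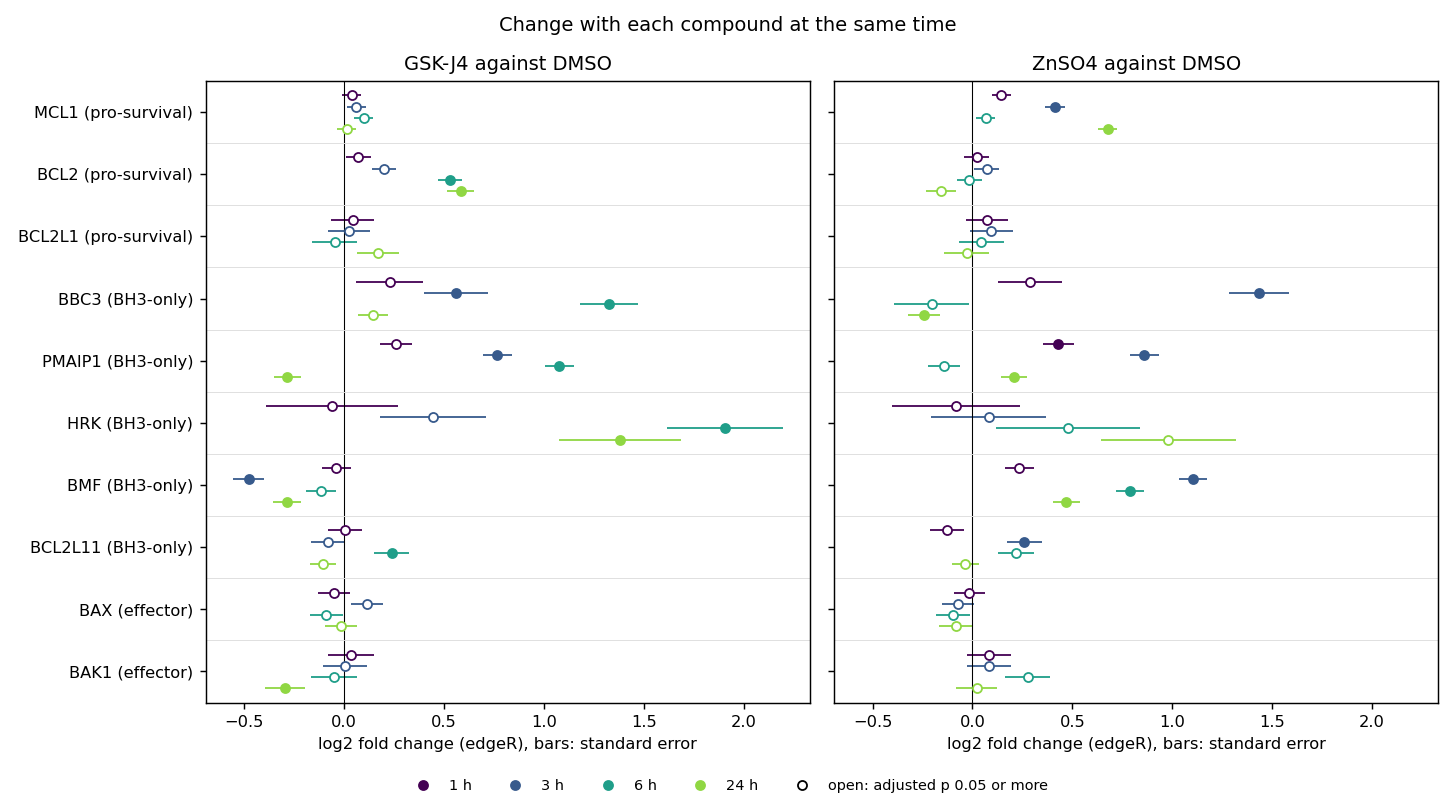
Log2 fold change of the 10 genes with GSK-J4 (left) and ZnSO4 (right) against DMSO of the same time, with the standard error as bars, filled where the adjusted p was under 0.05. BMF lies to the right of 0 with ZnSO4 and to the left with GSK-J4 at 3 h (1.11 and -0.48), and HRK reaches 1.91 with GSK-J4 at 6 h.

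MCL1, whose short-lived protein holds BAK1 and BIM in check, was the most abundant of the 10 transcripts per kilobase of exon, and it made up 84.1 to 95.3% of the summed pro-survival level in the group means. With the median transcript length MCL1 made up 75.8 to 91.7%, so the share depends on the length used. Levels were 528, 543 and 474 CPM at T0 and 518, 552 and 534 CPM in DMSO at 6 h. In the 3 DMSO libraries of 24 h they were 809, 789 and 767 CPM, 1.53-fold above T0 with no overlap (0.61 ± 0.05, adjusted p = 9.5e-18, log2 scale). With ZnSO4 for 3 h the libraries gave 670.1, 735 and 752 CPM, against 538, 540.4 and 542 CPM in DMSO. All 3 ZnSO4 libraries lay above the DMSO libraries, a log2 difference of 0.41 ± 0.05 (adjusted p = 5.4e-10). At 6 h the ZnSO4 and DMSO groups overlapped (559.9 ± 13.6 against 535 ± 16.96 CPM, SD, n = 3; 0.07 ± 0.05, not called by edgeR). At 24 h MCL1 was highest of all groups with ZnSO4, at 1218, 1254 and 1309 CPM, 1.6-fold above DMSO (0.68 ± 0.05, adjusted p = 4.6e-18). GSK-J4 gave 787, 815 and 786 CPM at 24 h, overlapping DMSO, with an interval of the log2 difference of -0.08 to 0.11. At 6 h with GSK-J4 the value was 0.10 ± 0.05 and was called only with library totals alone (0.14, adjusted p = 0.025 by edgeR).

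BCL2, the target of venetoclax and a pro-survival protein that holds BIM, was the only member called lower at 24 h of DMSO. It stood at 129, 135 and 151 CPM at T0 and 136, 139 and 136 CPM in DMSO at 6 h. After 24 h of DMSO the libraries gave 70.6, 77.9 and 66.3 CPM, all below every library before 24 h, and BCL2 fell by 0.94 ± 0.07 (adjusted p = 7.5e-20) on the log2 scale. With GSK-J4 it rose against DMSO of the same time. The 6 h libraries gave 192, 205 and 196 CPM, the highest group of all, 1.45-fold above DMSO (0.53 ± 0.06, adjusted p = 2.1e-10). At 24 h they gave 102, 112 and 109 CPM, above the DMSO libraries without overlap (0.58 ± 0.07, adjusted p = 2.8e-10) but below T0. At 3 h the difference of 0.20 ± 0.06 (adjusted p = 0.057) missed the threshold and passed it with library totals alone (0.22, adjusted p = 0.033), with the compared groups alone in the fit (0.20, 0.0012) or without GSK-J4 3 h replicate 2 (0.24, 0.033). With ZnSO4 BCL2 was not called at any time. The ZnSO4 libraries of 24 h gave 68.5, 61.2 and 64.00 CPM, overlapping DMSO (-0.16 ± 0.08, not called).

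BCL2L1, which encodes the pro-survival protein BCL-XL, was not called in any of the 8 comparisons of a compound with DMSO, and its log2 differences ran from -0.05 to 0.17. Over the 30 libraries before 24 h it ranged from 23.6 to 36.3 CPM (median 28.1), and over the 9 libraries of 24 h from 26.3 to 35.9 CPM (median 31.5). The intervals allowed at most 0.30 at 3 h with ZnSO4 and 0.37 at 24 h with GSK-J4. The GSK-J4 libraries of 24 h gave 33.97, 33.6 and 33.7 CPM and lay above the DMSO libraries of 24 h, but the difference was not called (0.17 ± 0.11, adjusted p = 0.23). ABALON, a gene on the opposite strand, shares 43.0% of the exon bases of BCL2L1, so the BCL2L1 value is uncertain.

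**Figure D3:**
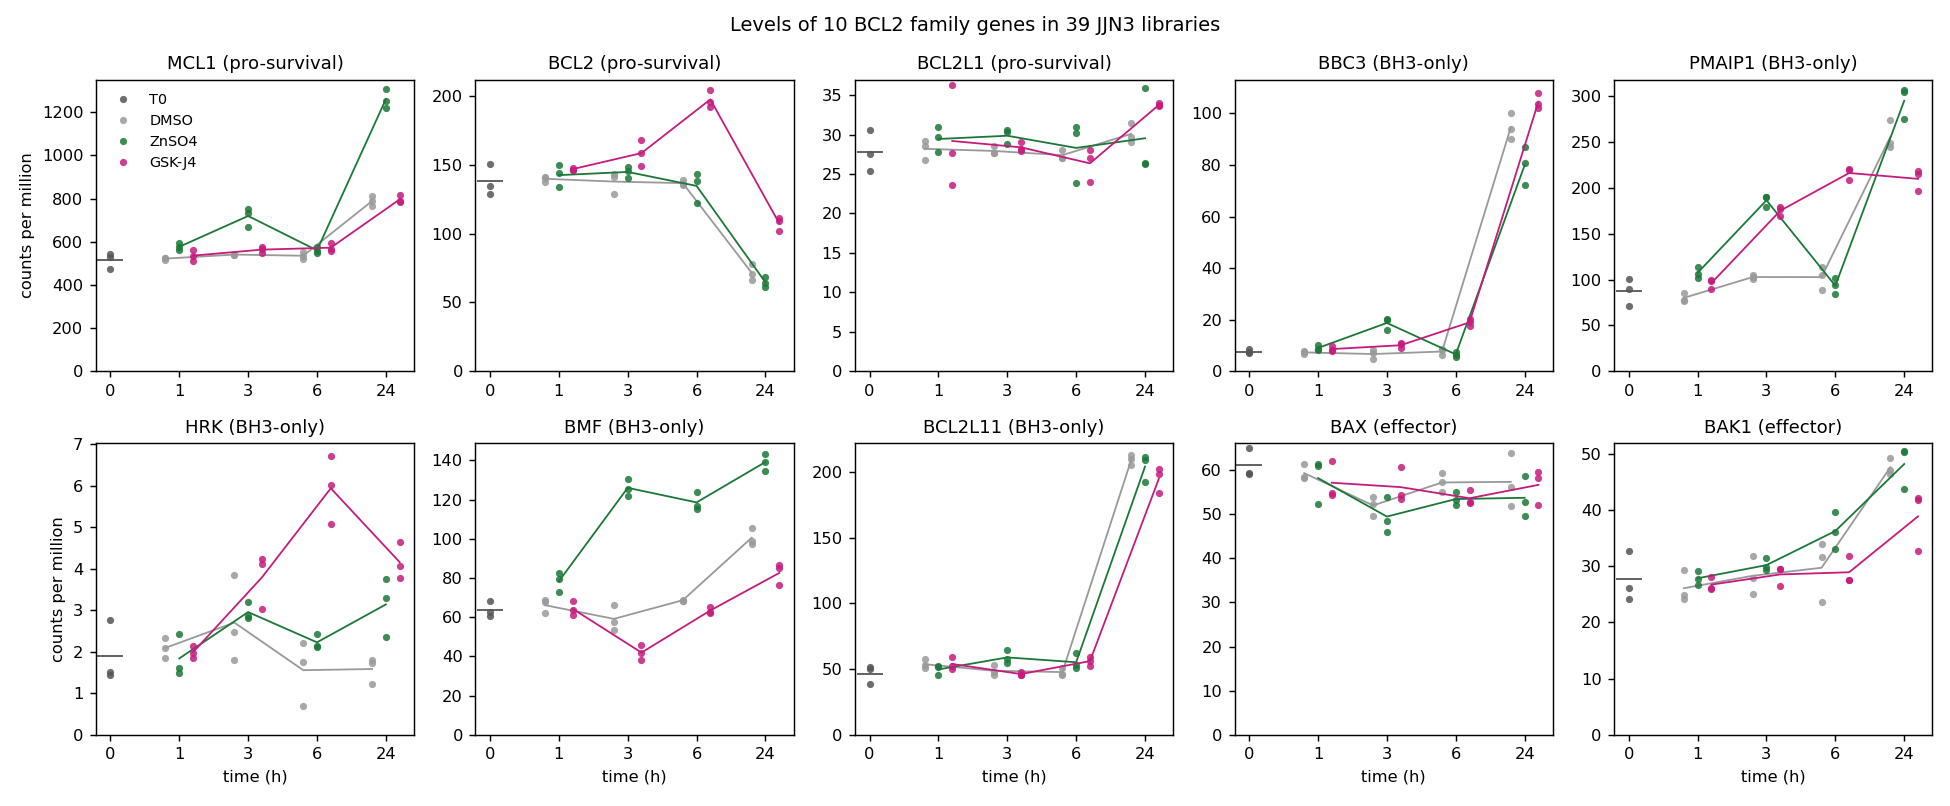
Level in CPM of each of the 10 genes (vertical axes from 0) in each library against time in hours (0, 1, 3, 6 and 24, not to scale), by treatment, with lines through the group means. BBC3 and BCL2L11 step up at 24 h under all 3 treatments, and PMAIP1 is highest at 24 h with ZnSO4 and DMSO. PMAIP1 and, at a lower level, BBC3 also have an earlier peak at 3 h with ZnSO4. With GSK-J4 both rise by 6 h, PMAIP1 already clearly at 3 h.

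BBC3 encodes PUMA, a BH3-only protein that binds all pro-survival members and is a classical p53 target. Before 24 h it was low, at 7.39, 6.99 and 8.48 CPM at T0. In DMSO at 24 h the libraries gave 90.2, 93.8 and 99.99 CPM, 12.5-fold above T0 (3.65 ± 0.11, adjusted p = 1.3e-37), the largest change of the 10 genes in any comparison. The compounds moved it at different earlier times. With ZnSO4 at 3 h the libraries gave 20.1, 16.1 and 19.9 CPM against 8.29, 6.92 and 4.71 CPM in DMSO, 2.7-fold higher without overlap (1.43 ± 0.15, adjusted p = 1e-11). At 6 h the ZnSO4 libraries were back at 7.58, 5.53 and 6.39 CPM, overlapping DMSO (-0.20 ± 0.19, not called). With GSK-J4 the 6 h libraries gave 20.3, 17.4 and 19.1 CPM against 6.32, 8.44 and 8.07 CPM in DMSO, 2.51-fold higher (1.33 ± 0.15, adjusted p = 6.5e-11). Every GSK-J4 library of 6 h was above every DMSO library. The 3 h rise with GSK-J4, 0.56 ± 0.16 (adjusted p = 0.041), was lost with DESeq2 (adjusted p = 0.076), without a filter on low counts (0.071), and when DMSO 3 h replicate 2 (0.14) or 3 (0.32) or GSK-J4 3 h replicate 2 (0.14) or 3 (0.16) was left out. At 24 h GSK-J4 gave 102, 108 and 104 CPM, above all DMSO libraries of 24 h but not called (0.14 ± 0.08, adjusted p = 0.15). It was called with library totals alone (0.24, adjusted p = 0.014 by edgeR) and with only the compared groups in the fit (0.15, 0.044). The lower value with ZnSO4 at 24 h, -0.24 ± 0.08 (adjusted p = 0.044), was likewise lost with DESeq2 (0.12), without a filter on low counts (0.054), with library totals alone (0.080), and without DMSO 24 h replicate 2 (0.090) or 3 (0.20) or ZnSO4 24 h replicate 2 (0.11) or 3 (0.26).

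PMAIP1 encodes NOXA, a BH3-only protein that binds chiefly MCL1, and it was called in 6 of the 8 comparisons with DMSO, of which the call with ZnSO4 at 24 h was not stable. With ZnSO4 at 1 h the libraries gave 106, 102 and 114 CPM against 85.1, 78.2 and 76.8 CPM in DMSO, which did not overlap (0.43 ± 0.08, adjusted p = 0.00027). At 3 h they gave 179, 190.4 and 190.5 CPM against 105, 103 and 100.4 CPM, 1.82-fold higher (0.86 ± 0.07, adjusted p = 8.4e-15). At 6 h they had returned to 84.4, 102 and 94.1 CPM, overlapping DMSO, and were not called (-0.14 ± 0.08). GSK-J4 gave 179.8, 169 and 177 CPM at 3 h, close to ZnSO4 and 1.7-fold above DMSO (0.77 ± 0.07, adjusted p = 1.2e-12). Unlike with ZnSO4, the 6 h libraries stayed high at 219, 209 and 221 CPM against 105, 114 and 89.1 CPM in DMSO (1.08 ± 0.07, adjusted p = 2.6e-19). In DMSO at 24 h PMAIP1 had itself reached 245, 249.2 and 274 CPM (1.54 ± 0.07, adjusted p = 5.7e-28 against T0). The GSK-J4 libraries of 24 h, 196, 218 and 215 CPM, all lay below these, and PMAIP1 fell by 0.28 ± 0.07 (adjusted p = 0.00061) against DMSO. The higher value with ZnSO4 at 24 h, 0.21 ± 0.07 (adjusted p = 0.035), was lost with DESeq2 (0.058), without a filter on low counts (0.14), and without DMSO 24 h replicate 1 (0.17) or 2 (0.13) or ZnSO4 24 h replicate 2 (0.17) or 3 (0.15).

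HRK encodes Harakiri, a BH3-only protein that binds BCL-XL and BCL2 and is best known from neurons. Its transcript was scarce, with 12, 4 and 14 counts in the DMSO libraries of 6 h. With GSK-J4 at 6 h there were 42, 39 and 24 counts, which is 6.01, 6.72 and 5.08 CPM against 1.76, 0.689 and 2.22 CPM in DMSO. The groups did not overlap, and the difference was 3.75-fold (1.91 ± 0.29, adjusted p = 4.9e-07), the largest of any member with either compound. At 24 h GSK-J4 gave 3.77, 4.64 and 4.06 CPM against 1.22, 1.81 and 1.72 CPM (1.38 ± 0.30, adjusted p = 0.00024). With ZnSO4 at 24 h, 3.75, 3.30 and 2.36 CPM also lay above DMSO, but the difference of 0.98 ± 0.34 (adjusted p = 0.053) missed the threshold. It passed with library totals alone (1.00, adjusted p = 0.048) and without ZnSO4 24 h replicate 3 (1.14, 0.045). HRK was not called over time in DMSO (-0.20 ± 0.35 at 24 h against T0, interval -0.88 to 0.49).

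BMF, a BH3-only protein known from loss of attachment and from binding to the motor proteins of the cytoskeleton, was higher with ZnSO4 and lower with GSK-J4. ZnSO4 gave 122, 125 and 131 CPM at 3 h, GSK-J4 38.2, 45.9 and 41.8 CPM and DMSO 53.4, 57.5 and 66.5 CPM. The 3 groups did not overlap, with ZnSO4 2.15-fold above DMSO (1.11 ± 0.07, adjusted p = 2.9e-20) and GSK-J4 at 0.718 of the DMSO level (-0.48 ± 0.08, adjusted p = 9.8e-06). With ZnSO4 it stood at 115, 117 and 124 CPM at 6 h (0.79 ± 0.07, adjusted p = 9.6e-14) and at 135, 143 and 139 CPM at 24 h (0.47 ± 0.07, adjusted p = 4.4e-07). In GSK-J4 at 6 h it was 62.4, 65.4 and 62.5 CPM, under the DMSO libraries of 68.5, 68.5 and 68.99 CPM but not called (-0.11 ± 0.08). At 24 h GSK-J4 gave 85.02, 86.4 and 76.3 CPM against 106, 98.95 and 97.2 CPM in DMSO, and BMF fell by 0.29 ± 0.07 (adjusted p = 0.00076). BMF therefore was called with ZnSO4 at 3, 6 and 24 h, higher each time, and with GSK-J4 at 3 and 24 h, lower each time.

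BCL2L11 encodes BIM, a BH3-only protein that binds all pro-survival members and can activate BAX directly. Its libraries ranged from 38.2 to 64.2 CPM (median 51.3) over the 30 libraries before 24 h and from 184 to 213 CPM (median 205) over the 9 libraries of 24 h. In DMSO at 24 h it was 4.45-fold above T0 (2.15 ± 0.08, adjusted p = 1.7e-34), and it was not called against DMSO of 24 h with either compound. The interval of the log2 difference was -0.23 to 0.02 for GSK-J4, whose libraries all lay below DMSO, and -0.17 to 0.09 for ZnSO4, which overlapped DMSO. The small rises with ZnSO4 at 3 h, 0.26 ± 0.09 (adjusted p = 0.036), and with GSK-J4 at 6 h, 0.24 ± 0.09 (adjusted p = 0.044), were weakly held. The first was lost with DESeq2 (0.059), with library totals alone (0.090), and without DMSO 3 h replicate 1 (0.16) or 3 (0.17) or ZnSO4 3 h replicate 1 (0.19) or 2 (0.071). The second was lost with DESeq2 (0.067), without a filter on low counts (0.14), and without DMSO 6 h replicate 1 (0.14) or 2 (0.14) or GSK-J4 6 h replicate 1 (0.21) or 2 (0.10). MIR4435-2HG, a long non-coding RNA on the opposite strand, shares 10.9% of the exon bases of BCL2L11. It stood at 26.8 ± 2.70 CPM in DMSO at 24 h and 29.4 ± 2.42 CPM at T0, but at 32.9 ± 3.03 CPM with ZnSO4 and 33.8 ± 2.20 CPM with GSK-J4 at 24 h, the highest means of the 13 groups. Its part in the BCL2L11 value was not tested.

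BAX, the effector that moves from the cytosol to mitochondria, was called with neither compound at any time. It ranged from 45.9 to 65.1 CPM (median 54.9) in the 30 libraries before 24 h and from 49.6 to 63.8 CPM (median 56.2) at 24 h. Its log2 differences from DMSO lay between -0.10 and 0.11, and the intervals reached from -0.26 (ZnSO4 at 6 h) to 0.27 (GSK-J4 at 3 h). BAK1, the effector resident on mitochondria, was higher at 24 h of DMSO, with 49.3, 47.2 and 46.5 CPM against 32.7, 26.1 and 24.2 CPM at T0 (0.77 ± 0.10, adjusted p = 1.8e-09). With GSK-J4 at 24 h it gave 41.9, 42.1 and 32.7 CPM, below the DMSO libraries (-0.30 ± 0.10, adjusted p = 0.019). That call was lost with library totals alone (-0.20, adjusted p = 0.12), without GSK-J4 24 h replicate 3 (-0.19, 0.21) or without DMSO 24 h replicate 1 (-0.28, 0.053). BAK1P1, a pseudogene copy, reached at most 5.75 CPM, and reads shared with it make the BAK1 value uncertain.

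The 2 compounds were compared with each other at each time, which tests the difference of their effects since they share the DMSO libraries. At 3 h GSK-J4 was below ZnSO4 for MCL1, BBC3, BMF and BCL2L11, so 0 of the 10 were higher and 4 lower, against 3.99% and 6.12% of all genes. BMF differed most, at -1.58 ± 0.07 (adjusted p = 2.1e-28), followed by BBC3 at -0.87 ± 0.12 (adjusted p = 1e-07). At 6 h BCL2, BBC3, PMAIP1 and HRK were higher with GSK-J4 and BMF and BAK1 lower, so 4 and 2, against 8.53% and 9.88%. BBC3 differed by 1.53 ± 0.16 (adjusted p = 4.5e-12), HRK by 1.43 ± 0.28 (adjusted p = 8e-05), PMAIP1 by 1.22 ± 0.08 (adjusted p = 4.2e-21), BCL2 by 0.55 ± 0.06 (adjusted p = 1.3e-10) and BMF by -0.90 ± 0.07 (adjusted p = 2.4e-16). The sign for BBC3 was thus opposite at 3 and 6 h. At 24 h BCL2 and BBC3 were higher with GSK-J4 and MCL1, PMAIP1, BMF and BAK1 lower, so 2 and 4, against 12% and 12.5%. MCL1 differed by -0.66 ± 0.05 (adjusted p = 5.5e-18), BCL2 by 0.74 ± 0.07 (adjusted p = 3.2e-12), PMAIP1 by -0.49 ± 0.07 (adjusted p = 5.8e-08) and BMF by -0.76 ± 0.07 (adjusted p = 1.4e-13).

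The pro-survival pair MCL1 and BCL2 therefore stood in opposite order between the compounds at 24 h. MCL1 was higher with ZnSO4 and BCL2 higher with GSK-J4, and in both cases the 3 libraries of one group lay beyond the 3 of the other. For PMAIP1 at 3 h the interval of the difference was -0.22 to 0.04, for BCL2L11 at 6 h -0.15 to 0.19 and for MCL1 at 6 h -0.06 to 0.13. The BAK1 calls were lost under some alternatives, at 6 h with DESeq2 (adjusted p = 0.067), without a filter (0.098), with library totals alone (0.061) and without GSK-J4 or ZnSO4 6 h replicate 1 (0.14 and 0.079) or 2 (0.12 and 0.16). At 24 h that for BAK1 was lost with library totals alone (0.089) and without ZnSO4 24 h replicate 2 (0.094) or 3 (0.073) or GSK-J4 24 h replicate 3 (0.21). BCL2L1 was called higher at 24 h only without ZnSO4 24 h replicate 3 (0.35, 0.039). With library totals alone BCL2 (0.19) and BAX (0.25) were also called at 3 h, and the split over all genes was 1270 higher and 638 lower at 3 h (577 and 885 in the fit used here), 1528 and 1181 at 6 h (1233 and 1428) and 2447 and 1229 at 24 h (1734 and 1812). At 1 h edgeR called none of the 10, DESeq2 none, and 3 had an unadjusted p under 0.05, where 0.138% and 0.526% of all genes were called higher and lower. BMF was called without ZnSO4 1 h replicate 3 (-0.33, adjusted p = 0.031).

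**Figure D4:**
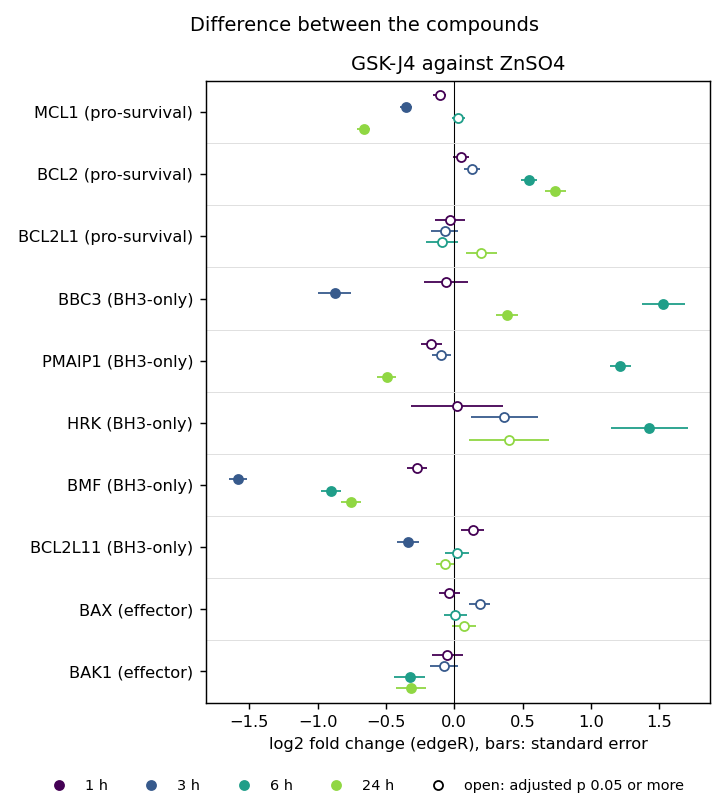
Log2 difference of GSK-J4 from ZnSO4 for the 10 genes at 1, 3, 6 and 24 h, with the standard error as bars and filled points for adjusted p under 0.05. BBC3 lies left of 0 at 3 h (-0.87) and right of it at 6 h (1.53), while BMF lies left of 0 at every time.

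Whether an effect differed between neighbouring times was tested for each compound. For GSK-J4, 2 of the 10 genes differed between 1 and 3 h (PMAIP1 and BMF). Between 3 and 6 h 4 differed (BCL2, BBC3 and HRK, larger at 6 h, and BMF, whose value went from -0.48 to -0.11, nearer to 0). Between 6 and 24 h 3 differed (BBC3, PMAIP1 and BCL2L11). Of all genes tested, 0.588%, 3.67% and 5.75% differed at these steps. From 6 to 24 h the PMAIP1 effect changed sign, from 1.08 (called higher) to -0.28 (called lower). BBC3 went from 1.33 to 0.14 and BCL2L11 from 0.24 to -0.10, neither called at 24 h. For ZnSO4, 4 differed between 1 and 3 h (MCL1, BBC3, PMAIP1 and BMF, larger at 3 h), 3 between 3 and 6 h (MCL1, BBC3 and PMAIP1, smaller at 6 h) and 1 between 6 and 24 h (MCL1, larger at 24 h), against 2.77%, 2.18% and 0.408%. All 4 calls of GSK-J4 between 3 and 6 h were lost without a filter on low counts. Between 3 and 6 h with ZnSO4, BMF was called at that step only without DMSO 3 h replicate 3 (-0.40, adjusted p = 0.023 by edgeR). The step between 6 and 24 h also holds the change of the DMSO cultures, in which BBC3, PMAIP1 and BCL2L11 were higher at 24 h than at T0.

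Summed over each class, and per kilobase of exon, BH3-only transcripts came closest to pro-survival transcripts at 24 h of DMSO. The BH3-only sum was 60.3 ± 7.50 CPM per kilobase at T0 and 194 ± 7.34 in DMSO at 24 h, while the pro-survival sum was 138 ± 7.97 and 196 ± 4.76 (SD, n = 3). Their ratio was 0.436 ± 0.0339 at T0, 0.464 ± 0.00779 and 0.480 ± 0.0315 in DMSO at 3 and 6 h and 0.995 ± 0.0615 at 24 h. At 3 h it was 0.656 ± 0.0196 with ZnSO4 and 0.641 ± 0.0201 with GSK-J4, and every library of both lay above the DMSO libraries of 3 h. At 6 h it was 0.795 ± 0.0166 with GSK-J4 and 0.501 ± 0.0194 with ZnSO4, of which only GSK-J4 cleared the DMSO range. At 24 h both compounds lay below DMSO. The ratio was 0.707 ± 0.0267 with ZnSO4, where MCL1 was above its DMSO level of 24 h. With GSK-J4 it was 0.853 ± 0.0191, where PMAIP1 and BMF were below their DMSO levels of 24 h. The part of single genes in the ratio was not tested. The effector sum was 36.2 ± 1.51 at T0 and 43.7 ± 1.77 in DMSO at 24 h. With the median transcript length it was 103 ± 3.92 and 107 ± 8.34, and with library totals alone 37.2 ± 1.68 and 38.5 ± 1.24, and on both of these scales the libraries overlapped. These sums are descriptions with no test, and the length used for each gene matters: with the median transcript length the ratio was 1.71 ± 0.0535 in DMSO at 24 h, 1.14 ± 0.0391 and 0.868 ± 0.000675 with ZnSO4 and GSK-J4 at 3 h and 0.805 ± 0.0190 in DMSO at 3 h. At 6 h it then was 1.08 ± 0.0213 with ZnSO4, 1.11 ± 0.0267 with GSK-J4 and 0.857 ± 0.0206 in DMSO. On that scale both compounds cleared the DMSO range of 6 h, and their libraries overlapped each other.

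**Figure D5:**
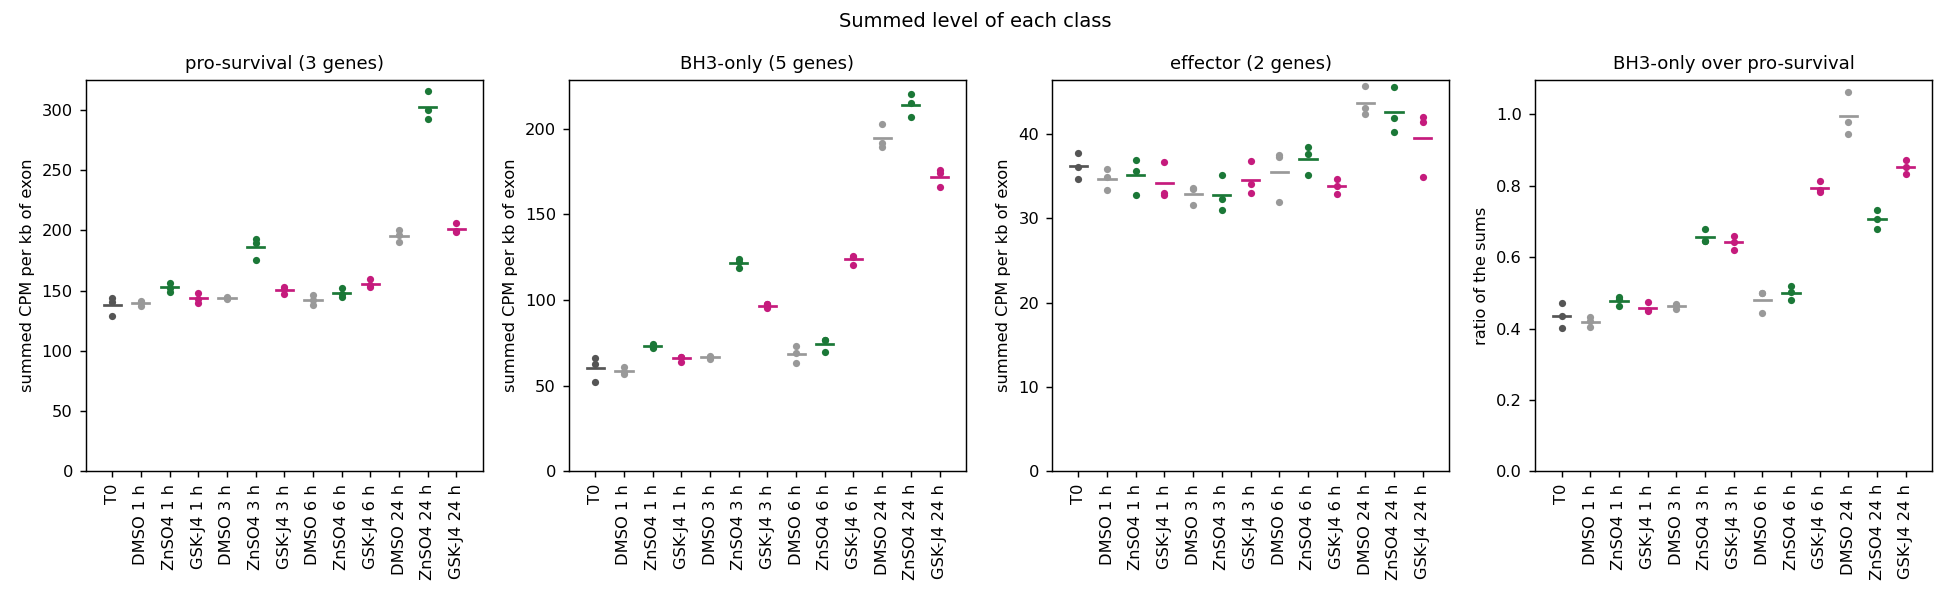
Summed CPM per kilobase of exon of the 3 pro-survival, 5 BH3-only and 2 effector genes, and the ratio of the first 2 sums (BH3-only over pro-survival), in each library of the 13 groups, with the group mean as a bar. The ratio is highest in DMSO at 24 h (0.995 ± 0.0615) and lies between 0.403 and 0.499 in the libraries of T0 and of DMSO up to 6 h.

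Other genes of the pathway were taken from lists. Of 11 other BCL2 family genes 7 were tested. With GSK-J4 1 was lower at 6 h and 1 at 24 h, where 10.5% and 16.8% of all genes were lower, and with ZnSO4 2 were higher at 3 h, where 6.59% of all genes were. At the other times edgeR and DESeq2 called 0 of them, with 0 and 2 at an unadjusted p under 0.05 for GSK-J4 at 1 and 3 h and 0 each for ZnSO4. BID, a BH3-only protein that links death receptors to mitochondria, fell by 0.45 ± 0.09 (adjusted p = 8.4e-05) with GSK-J4 at 6 h (43.9 ± 2.51 against 60.2 ± 1.84 CPM) and rose with ZnSO4 at 3 h (0.41 ± 0.08, adjusted p = 0.00017). BCL2L15 rose with ZnSO4 at 3 h (1.05 ± 0.30, adjusted p = 0.013). Of 19 genes of the apoptosome, the caspases and their inhibitors, 3 were higher and 9 lower with GSK-J4 at 24 h (median -0.20, over all genes 0.02), against 15.2% and 16.8% of all genes, so that the share higher was near that of all genes. At 3 h 0 were higher and 2 lower, against 1.45% and 0.927%, and at 6 h 4 were higher and 2 lower, against 9.83% and 10.5%. With ZnSO4 there were 4 higher and 2 lower at 3 h (against 6.59% and 4.16%), the same counts at 6 h (4.81% and 4.51%), and 1 and 2 at 24 h (3.98% and 5.58%). The mitochondrial channels VDAC1 and VDAC3 fell by 0.48 ± 0.06 (adjusted p = 8.9e-10) and 0.38 ± 0.06 (adjusted p = 2.2e-07) with GSK-J4 at 24 h, and CYCS, which encodes the cytochrome c released by BAX and BAK1, fell by 0.29 ± 0.05 (adjusted p = 7.2e-06).

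Of 12 death receptor genes 11 were tested, with 3 higher and 0 lower with GSK-J4 at 6 h (against 9.83% and 10.5% of all genes), 2 and 1 at 24 h (15.2% and 16.8%), and 2 and 0 with ZnSO4 at 3 h (6.59% and 4.16%). The counts at 24 h were near the shares of all genes. TNFRSF10B, the TRAIL receptor DR5, rose by 1.04 ± 0.12 (adjusted p = 4.1e-10) with GSK-J4 at 6 h and by 0.78 ± 0.12 (adjusted p = 1.6e-06) with ZnSO4 at 3 h. CASP8, which cleaves BID, rose by 0.57 ± 0.06 (adjusted p = 3.2e-11) with GSK-J4 at 24 h, and FAS fell by 0.33 ± 0.06 (adjusted p = 4.7e-05). Of 7 genes for turnover of the family's proteins, 2 were higher at 6 h (GSK3B at 0.28 ± 0.08, adjusted p = 0.013 and FBXW7 at 0.28 ± 0.10, adjusted p = 0.031) and 1 at 24 h with GSK-J4 (GSK3B), against 9.83% and 15.2% of all genes. None was called with ZnSO4 at any time (0, 0, 2 and 2 with an unadjusted p under 0.05 at 1, 3, 6 and 24 h). DESeq2 called 0 of these with ZnSO4 at each time.

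Of 15 transcription factors with textbook links to these genes 14 were tested. With GSK-J4, 4 were higher and 0 lower at 3 h, 6 and 2 at 6 h and 5 and 3 at 24 h, and with ZnSO4 2 and 0 at 1 h, 6 and 2 at 3 h, 1 and 2 at 6 h and 1 and 4 at 24 h. In DMSO at 24 h against T0, 11 were higher and 1 lower, where the shares over all genes were 30.5% and 32.7%. For GSK-J4 these shares were 1.45% and 0.927% at 3 h, 9.83% and 10.5% at 6 h and 15.2% and 16.8% at 24 h. For ZnSO4 they were 0.498% and 0.18% at 1 h, 6.59% and 4.16% at 3 h, 4.81% and 4.51% at 6 h and 3.98% and 5.58% at 24 h. DDIT3, which encodes CHOP of the unfolded protein and integrated stress responses, rose by 2.60 ± 0.15 (adjusted p = 3.5e-23) with GSK-J4 at 6 h (31.02 ± 1.55 against 5.12 ± 0.898 CPM). With ZnSO4 it rose by 0.73 ± 0.18 (adjusted p = 0.0024) at 3 h, and GSK-J4 at the same time was above ZnSO4 by 1.34 ± 0.12 (adjusted p = 9.9e-14). ATF3, a stress-induced factor, rose by 2.22 ± 0.14 (adjusted p = 4.7e-21) with GSK-J4 at 6 h and by 2.22 ± 0.15 (adjusted p = 2.1e-19) with ZnSO4 at 3 h, and by 3.71 ± 0.12 (adjusted p = 2.2e-36) in DMSO at 24 h. CEBPB, a factor that pairs with CHOP, rose by 1.54 ± 0.10 (adjusted p = 8.7e-20) with GSK-J4 at 6 h and fell by 1.79 ± 0.14 (adjusted p = 1.1e-17) in DMSO at 24 h.

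The transcripts most like each member over the 13 group means of log2 CPM were found among 9467 genes by Pearson's correlation. The groups of 24 h lie apart for many genes, so the value over the 10 earlier groups is given too, and both describe means from the same libraries. For PMAIP1 they were RHEBL1 (0.96, and 0.94 before 24 h) and ATF3 (0.96 and 0.97), and for BBC3 BACH1 (0.99, and 0.95 before 24 h) and CREBRF (0.99 and 0.90). For HRK they were APOL6 (0.91, and 0.91 before 24 h) and FAM107B (0.89 and 0.91), and for BMF RUNX3 (0.94, and 0.91 before 24 h) and MKNK2 (0.91 and 0.90). For MCL1 they were ZBTB1 (0.97, and 0.75 before 24 h) and PEX2 (0.96 and 0.81), and for BCL2 SLC43A1 (0.99, and 0.92 before 24 h) and MUS81 (0.99 and 0.89). For BCL2L11 they were SPTY2D1 (1.00, and 0.78 before 24 h) and MYLIP (0.99 and 0.61), and for BAK1 GAPDH (0.99, and 0.94 before 24 h) and PPDPF (0.99 and 0.93). Among the members, BBC3 and BCL2L11 had 0.96 over the 13 groups and 0.54 over the 10 earlier ones, while BBC3 and PMAIP1 had 0.87 and 0.89.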

How the data were processed

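RNA was sequenced in 39 JJN3 libraries. Per the submitters' processing notes, reads were aligned with HISAT2 2.1.0 to hg19. The deposited table holds the authors' raw counts per gene as whole numbers. Which annotation and counting program were used, and whether strand was taken into account, is not given in the sources used here. Samples labelled 1 h were taken as labelled, although the labels' protocol names 3, 6 and 24 h. Replicates were numbered in accession order within a group.

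All libraries were fitted together in R 4.3.3 with edgeR 4.0.16 (limma 3.58.1; quasi-likelihood F-test, TMM). A filter (filterByExpr, minimum count 10) left 14460 genes, and the residual degrees of freedom were 26. Adjusted p-values are Benjamini-Hochberg values over all genes tested, with a threshold of 0.05. The ± after a log2 difference is its standard error, and after a level the SD over 3 libraries. Intervals are 95% intervals from that standard error. Levels are TMM-scaled CPM. Lengths came from GENCODE 29, which is of another build than the alignment and gave no coordinates. The scripts were tested on simulated data. Alternatives were DESeq2 1.42.0 in place of edgeR, RLE size factors, library totals alone, no filter on low counts, only the compared groups, and each library left out in turn.

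The genes, the lists and their names were chosen with earlier results of these data known. Named were all 10 members, from each list up to 3 genes with the smallest adjusted p in a comparison of a compound with DMSO and called there, and for each member called there the 2 most correlated genes (average log2 CPM of at least 3). Replicates of a group differed beyond sampling noise (chi-squared per gene at least 1.205 in 39 pairs). Counting error alone sets the floor of 3 counts.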

Additional observations from a re-analysis of the deposited data

Results flagged for a closer look

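The effect of a compound against DMSO differed between neighbouring times for 17 values, each by edgeR's test of the difference itself. Values are the later log2 effect minus the earlier one, with the standard error. With GSK-J4, PMAIP1 gained 0.51 ± 0.11 (adjusted p = 0.0047) between 1 and 3 h, while BMF gave -0.44 ± 0.11 (adjusted p = 0.023). Between 3 and 6 h with GSK-J4, BCL2 gave 0.33 ± 0.09 (adjusted p = 0.014), BBC3 0.77 ± 0.22 (adjusted p = 0.036), HRK 1.46 ± 0.41 (adjusted p = 0.025) and BMF 0.36 ± 0.11 (adjusted p = 0.039). Between 6 and 24 h with GSK-J4, BBC3 gave -1.18 ± 0.17 (adjusted p = 6.1e-07), PMAIP1 -1.36 ± 0.10 (adjusted p = 9.2e-17) and BCL2L11 -0.34 ± 0.11 (adjusted p = 0.049).

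With ZnSO4 between 1 and 3 h, MCL1 gained 0.27 ± 0.07 (adjusted p = 0.012), BBC3 1.15 ± 0.22 (adjusted p = 0.00042), PMAIP1 0.43 ± 0.11 (adjusted p = 0.0094) and BMF 0.87 ± 0.10 (adjusted p = 2.8e-09). Between 3 and 6 h, MCL1 gave -0.35 ± 0.07 (adjusted p = 0.00064), BBC3 -1.64 ± 0.24 (adjusted p = 1.9e-06) and PMAIP1 -1.002 ± 0.11 (adjusted p = 3.2e-10). Between 6 and 24 h, MCL1 gave 0.61 ± 0.07 (adjusted p = 4.2e-09). Of the 17 values, 9 stayed past the threshold under every alternative run and 8 were lost under at least 1. Over all alternatives, 6 of these 8 had sizes of 0.36 to 0.51, adjusted p up to 0.23 for BMF with GSK-J4 between 1 and 3 h; 0.29 to 0.37, adjusted p up to 0.15 for BCL2, 0.57 to 0.92, adjusted p up to 0.28 for BBC3, 1.10 to 1.77, adjusted p up to 0.23 for HRK and 0.28 to 0.43, adjusted p up to 0.26 for BMF between 3 and 6 h; and 0.29 to 0.39, adjusted p up to 0.17 for BCL2L11 between 6 and 24 h. With ZnSO4 between 1 and 3 h, MCL1 was lost without ZnSO4 3 h replicate 3 (0.23, adjusted p = 0.10) and PMAIP1 without DMSO 1 h replicate 1 (0.38, adjusted p = 0.064). What sets these differences was not tested.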

How the results depend on the processing

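No value of the 10 genes changed sign where it was called. Of the 47 calls in comparisons of groups, 39 stayed past the threshold under every alternative run, and the other 8 are named in the report. With RLE size factors all 220 values kept their call. Only a call can be lost, and the fit used here had 47 calls in comparisons of groups and 17 in differences between times. With DESeq2 7 calls were lost among 196 values. With library totals alone 6 calls were lost and 7 gained among 220 values, and without a filter on low counts 10 were lost. With only the compared groups 2 calls were gained among 160 values. With 1 library left out 71 calls were lost and 13 gained among 1680 values, which hold each comparison once per library left out. DESeq2 gave no adjusted p for 24 values, which were left out.

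The number of members called moved as follows. GSK-J4 against DMSO at 3 h had 3. It had 4 with library totals alone or only the compared groups, and 2 without a filter or with DESeq2. At 6 h it had 5, and 6 with library totals alone and 4 without a filter or with DESeq2. At 24 h it had 5, and 6 with only the compared groups. ZnSO4 against DMSO at 3 h had 5, and 4 with library totals alone or DESeq2. ZnSO4 against DMSO at 24 h had 4, and 2 without a filter on low counts and 2 with DESeq2. The change of the GSK-J4 effect from 1 to 3 h had 2, and 1 without a filter. That from 3 to 6 h had 4, and 0 without a filter and 3 with DESeq2, which gave no adjusted p for HRK. That from 6 to 24 h had 3, and 2 with library totals alone or DESeq2. GSK-J4 against ZnSO4 at 3 h had 4, and 6 with library totals alone. At 6 h it had 6, and 5 with library totals alone, without a filter or with DESeq2. At 24 h it had 6, and 5 with library totals alone. DMSO at 24 h against T0 had 7, and 8 with library totals alone. With 1 library left out in turn the numbers moved too. For GSK-J4 against DMSO they ran from 2 to 3 at 3 h, 4 to 5 at 6 h and 4 to 5 at 24 h. For ZnSO4 against DMSO they were 4 to 5 at 3 h, 1 to 2 at 6 h and 2 to 4 at 24 h. GSK-J4 against ZnSO4 had 0 to 1 at 1 h, 5 to 6 at 6 h and 5 to 6 at 24 h. DMSO against T0 had 0 to 1 at 3 h and 0 to 1 at 6 h. The GSK-J4 effect had 1 to 2 from 1 to 3 h, 1 to 3 from 3 to 6 h and 2 to 3 from 6 to 24 h. The ZnSO4 effect had 3 to 5, 3 to 4 and 1 to 2 at these steps. The cause was not tested. No paired analysis was possible because the labels give no replicate numbers. HRK, with 4 to 43 counts per library, is limited by depth.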
